A study of Homo sapiens with 6 samples.

Results

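Proteoglycans are core proteins that carry long sulfated sugar chains, and 10 of their genes were followed here in a poorly and a highly invasive lung cancer cell line. The genes were those of the 4 syndecans (SDC1, SDC2, SDC3 and SDC4), the glypicans GPC1, GPC4 and GPC6, and the matrix proteoglycans perlecan (HSPG2), versican (VCAN) and decorin (DCN). They were chosen by name out of 19775 named genes on the arrays. Every probe set annotated to one of them and to no other gene was taken, 28 of 54675 in all. CL1-0 and CL1-5 are human cell lines derived from the parental line CL1 and labelled lung adenocarcinoma, CL1-0 as poorly invasive and CL1-5 as highly invasive. Both were grown in RPMI medium with 10% fetal bovine serum and 1% penicillin and streptomycin at 37 °C and 5% CO2, with no other agent named in the labels. Total RNA of 3 biological repeats per line, 6 µg each, was labelled with biotin and hybridised to 1 array each. Whether a line is a single clone is not given in the sources used here.

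Syndecans cross the cell membrane and glypicans are held on its outer face by a lipid anchor. Both carry mainly heparan sulfate, through which they bind growth factors, chemokines and matrix proteins. Perlecan is a large heparan sulfate proteoglycan of basement membranes, whereas versican and decorin carry chondroitin or dermatan sulfate and are typical of connective tissue matrix. In carcinomas these molecules have been studied for their roles in adhesion, growth factor signalling and invasion.

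The arrays parted by line. Of the variance between arrays 93.0% lay along the axis that separated the lines, and 4.42% along a second axis on which repeat 3 stood apart in both. Medians were 30.2 to 30.9 signal units per array, and precision is limited by there being 3 arrays per line. The 40th percentile of each array, between 19.5 and 20.3 signal units, stands in for background. Of the markers of the labelled tissue, NKX2-1, NAPSA and SFTPB, genes of the lung epithelium, averaged between 25.0 and 47.9 signal units in either line. Of the 8 lung and epithelial markers, the keratin genes KRT8 and KRT18 were higher in CL1-5, by 3.32 and 6.31 on the log2 scale. Each was read only from a suffix-x probe set, which can bind other transcripts. EPCAM, an epithelial adhesion protein gene, was at least 1.46-fold lower in CL1-5, but it passed the filter through CL1-0 alone and so had to differ. The summed signal of the 8, in CL1-5 mostly that of KRT18, was 354 to 379 in CL1-0 and 4618 to 5453 in CL1-5, and its part in the differences below was not tested. Of 7 fibroblast markers 3 passed the filter on dim probe sets, and limma called 0 of them (0 at an unadjusted p under 0.05). Their summed signal was 158 to 170 in CL1-0 and 147 to 157 in CL1-5. Of 5 endothelial markers PECAM1 was called higher in CL1-5, and the summed signal was 103 to 125 in CL1-0 and 182 to 193 in CL1-5, while CDH5, which defines endothelium, averaged 7.55 signal units in CL1-0 and 8.41 in CL1-5. The 3 leukocyte markers on the array summed to 51.3 to 52.7 in CL1-0 and 44.9 to 51.5 in CL1-5.

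At issue is which proteoglycan genes differ between a poorly and a highly invasive line of the same parent. With 1 line of either kind, invasive behaviour cannot be told apart from anything else that differs between the lines. SDC1, SDC2 and SDC4 were higher in CL1-5 and GPC4 was lower, while SDC3, GPC1, GPC6, HSPG2 and DCN did not pass the test and VCAN was too dim to be tested. SDC4 had a log2 fold change of 3.10 (SE 0.10), SDC1 of 2.57 (SE 0.09) and GPC4 of -1.90 (SE 0.15). SDC2 was at 0.39 (SE 0.09) through the probe set tested, though its other probe sets gave lower bounds of at least 2.82-fold and at least 3.15-fold, so its place among these is not settled. Log2 fold changes are CL1-5 over CL1-0 on the log2(signal + 6.85) scale, from 3 arrays of either line. On that scale the change of a dim gene appears smaller than it is. The lower bounds, worded as at least so many fold, use signal without the constant and set the brighter line over the other. They cannot be compared with the values of the fit. Calls were made by limma's moderated test at a Benjamini-Hochberg adjusted p under 0.05 over the 14828 genes that passed the filter, each through 1 probe set. Of the 9 members tested 3 were higher, against 23.3% of all genes tested, and 1 was lower, against 28.3%. Together, 4 of 9 stand beside 51.6% of all genes, so the number of members called was no larger than the share over the array. At least 2-fold higher were 2 members, against 8.51% of all genes, and at least 2-fold lower was 1, against 7.6%. The arrays of the lines did not overlap in 5 of the 9 (58.8% of all genes), with CL1-5 above in 4 (26.6%) and CL1-0 above in 1 (32.2%). The median log2 fold change of the 9 was 0.16, beside -0.033 over all genes tested. The labels call the repeats biological, and the p-values cover no more than the spread among them. In bulk RNA, fewer cells of a type and less RNA per cell cannot be told apart.

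**Figure D1:**
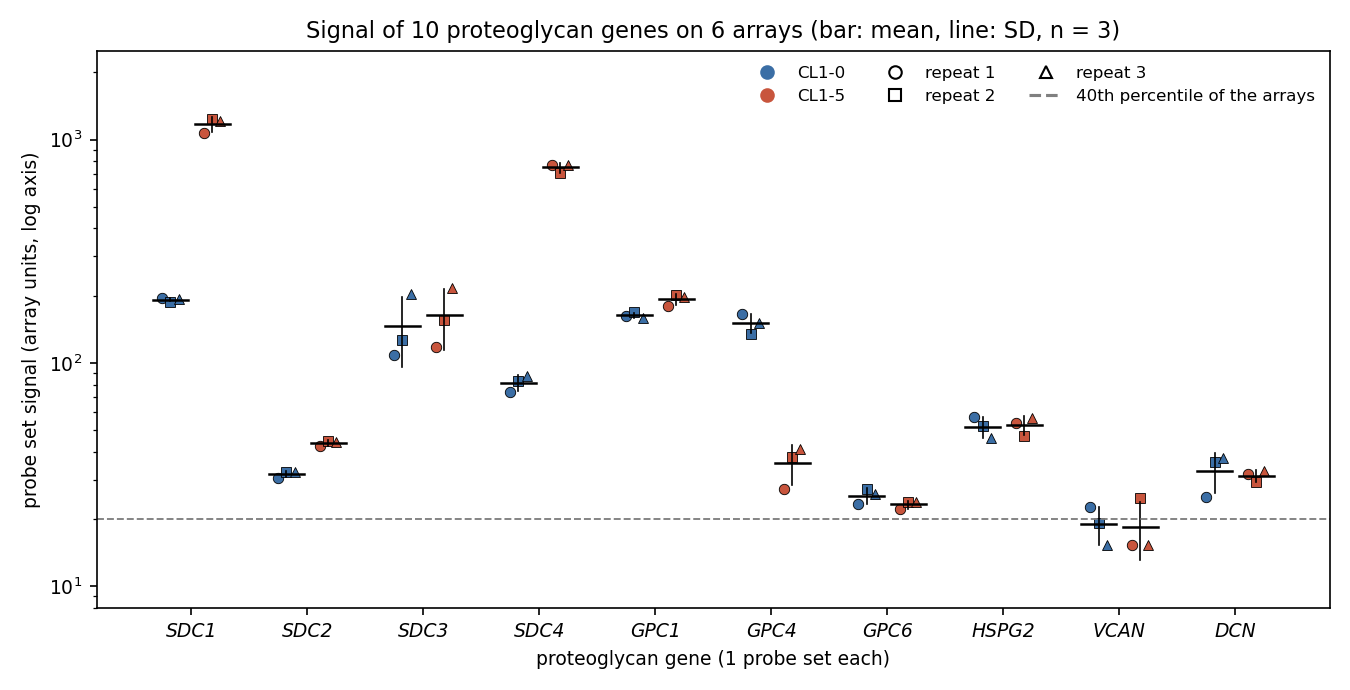
Probe set signal (log axis) of the 10 proteoglycan genes on each of the 6 arrays, with 1 probe set per gene (for VCAN the brightest). Marker shapes give the repeat, bars the mean and vertical lines the SD (n = 3), and the dashed line the middle of the arrays' 40th percentiles. SDC1 and SDC4 lie far apart between the lines and GPC4 the other way, whereas SDC3 follows the repeat number in both lines; heights of different genes cannot be compared, since each probe set has its own brightness.

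Among the syndecans, SDC4, the broadly expressed syndecan that sits in focal adhesions, is covered by 1 probe set. It read 74.0, 83.2 and 87.5 signal units in CL1-0 repeats 1, 2 and 3, and 773, 706 and 773 in CL1-5. Every CL1-5 array was thus far above every CL1-0 array. The means were 81.6 ± 6.91 (SD, n = 3) and 751 ± 38.8, and the gene was 8.58-fold higher on the scale of the fit (limma adjusted p = 2.3e-08). This placed SDC4 at rank 259 from the highest among the 14828 genes.

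SDC1, the syndecan of epithelial cells, is covered by 2 probe sets. The one tested for the gene (201287_s_at) read 195, 188 and 193 signal units in CL1-0 and 1066, 1239 and 1216 in CL1-5. The repeats of CL1-0 lay close together, at 192 ± 3.41 (SD), and those of CL1-5 averaged 1174 ± 94.2. The gene was 5.92-fold higher in CL1-5 (limma adjusted p = 4.1e-08), at rank 372. The other probe set, 201286_at, read 111, 87.8 and 92.4 in CL1-0 and 590.4, 567 and 501 in CL1-5. Its log2 fold change of 2.43 (SE 0.12) was close to the 2.57 of the first, and their 95% confidence intervals, 2.15 to 2.71 and 2.36 to 2.78, overlapped.

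SDC2, the syndecan of mesenchymal cells, has 3 probe sets, of which 1 was above the 40th percentile in both lines. The one with the highest mean, 212157_at, was the one tested for the gene, and it read 30.7, 32.5 and 32.4 signal units in CL1-0 and 42.3, 44.6 and 44.3 in CL1-5. The lines did not overlap, and the log2 fold change was 0.39 (SE 0.09, limma adjusted p = 0.0047). Probe set 212154_at read 8.56, 11.9 and 9.56 in CL1-0 and 63.4, 55.0 and 50.9 in CL1-5. Probe set 212158_at read 9.82, 14.8 and 8.66 in CL1-0 and 61.8, 68.8 and 58.5 in CL1-5. In both of these, CL1-0 lay under the 40th percentile on all arrays, so the difference is a lower bound of at least 2.82-fold for 212154_at and at least 3.15-fold for 212158_at. These bounds set the mean of CL1-5 against the 40th percentile of each CL1-0 array. Both passed the filter through CL1-5 alone and so had to differ, and their calls add nothing to that of 212157_at. The size for SDC2 thus depends on the probe set taken.

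SDC3, the syndecan best known from the nervous system, did not pass. Its brighter probe set, 202898_at, read 109, 127 and 204 signal units in CL1-0 repeats 1, 2 and 3, and 118, 156 and 217 in CL1-5. The lines overlapped, and in both of them repeat 3 gave the highest value. The log2 fold change was 0.16 (SE 0.26, limma adjusted p = 0.64), with a 95% confidence interval of -0.43 to 0.75, so that a difference of up to that size is not shown to be absent. Within repeats 1, 2 and 3 the differences were 0.12, 0.29 and 0.087. The 3′ to 5′ log2 ratio between the array's ACTB controls, which reflects RNA quality, was also highest in repeat 3, at 1.17 in CL1-0 and 0.91 in CL1-5, beside 0.44 to 0.53 and 0.31 to 0.40 in the other repeats. Its part in the SDC3 values was not tested. Between the lines the ACTB ratio averaged 0.71 ± 0.40 (SD) in CL1-0 and 0.54 ± 0.32 in CL1-5, and the GAPDH ratio 0.16 ± 0.089 and 0.084 ± 0.099. Both were higher in CL1-0 in 3 of 3 repeats (exact two-sided paired permutation p = 0.25 for each, the smallest possible), and their part in the differences between the lines was not tested. The other SDC3 probe set, 1554864_a_at, read 33.1, 31.2 and 31.8 in CL1-0 and 45.6, 34.4 and 44.7 in CL1-5, without overlap, and did not pass over all probe sets (0.31, SE 0.12, limma adjusted p = 0.064).

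Of the glypicans, GPC4 was the member that fell. Its probe set 204984_at read 165, 135 and 152 signal units in CL1-0 and 27.4, 38.1 and 41.2 in CL1-5. All CL1-5 arrays lay below all CL1-0 arrays, though above the 40th percentile. The means were 151 ± 14.9 (SD, n = 3) and 35.5 ± 7.26, and the gene was 3.74-fold lower on the scale of the fit (limma adjusted p = 6.8e-06), at rank 275 from the lowest. The other probe set, 204983_s_at, read 82.6, 86.1 and 54.7 in CL1-0 and 30.7, 30.8 and 24.9 in CL1-5, again without overlap. It fell by 1.17 on the log2 scale (SE 0.17), with a 95% confidence interval of -1.57 to -0.77 that reached just into that of 204984_at, -2.26 to -1.55.

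GPC1, a glypican often raised in carcinomas, was near the threshold. Its brighter probe set, 202756_s_at, read 162, 168 and 159 signal units in CL1-0 and 180, 201 and 197 in CL1-5. The lines did not overlap, yet the difference was small, 0.23 on the log2 scale (SE 0.09, limma adjusted p = 0.063, 95% confidence interval 0.022 to 0.44). With the repeat number as a block GPC1 was called higher (limma adjusted p = 0.027), which made 4 members higher in place of 3. The other probe set, 202755_s_at, read 52.3, 51.4 and 59.3 in CL1-0 and 58.1, 64.4 and 67.1 in CL1-5, with overlap, and gave 0.20 (SE 0.11, limma adjusted p = 0.18).

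GPC6, a relative of GPC4 in the same glypican subfamily, was dim in both lines. Its brighter probe set, 223730_at, read 23.3, 27.4 and 25.8 signal units in CL1-0 and 22.1, 23.7 and 23.8 in CL1-5. The lines overlapped, with a log2 fold change of -0.10 (SE 0.09, limma adjusted p = 0.38). The other probe set, 227059_at, lay between 7.47 and 10.1 on the 6 arrays, under the 40th percentile on each.

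The matrix proteoglycans showed low signals and no called difference. HSPG2, perlecan, read 57.1, 51.9 and 46.2 signal units in CL1-0 and 53.9, 47.1 and 56.9 in CL1-5 through 201655_s_at. Its lines overlapped fully, at 0.022 on the log2 scale (SE 0.11, limma adjusted p = 0.89, 95% confidence interval -0.23 to 0.28). Its other probe set, 201654_s_at, gave -0.057 (SE 0.15). DCN, decorin, has 7 probe sets, and the 2 that passed the filter were both of the cross-hybridising kind (suffix x), so other transcripts may contribute. The one tested, 211813_x_at, read 25.0, 36.0 and 37.4 in CL1-0 and 31.7, 29.2 and 32.8 in CL1-5, and gave -0.044 (SE 0.13, limma adjusted p = 0.82). The other 5 DCN probe sets lay between 5.04 and 14.8 signal units on all arrays, under the 40th percentile. VCAN, versican, has 5 probe sets, and none passed. The brightest, 204620_s_at, read 22.7, 19.2 and 15.3 in CL1-0 and 15.3, 24.7 and 15.3 in CL1-5, above the 40th percentile on 1 array of each line. Its other probe sets lay between 6.10 and 17.8. A transcript level at or under this percentile was not told apart from background on these arrays, which does not show that the transcript is absent.

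**Figure D2:**
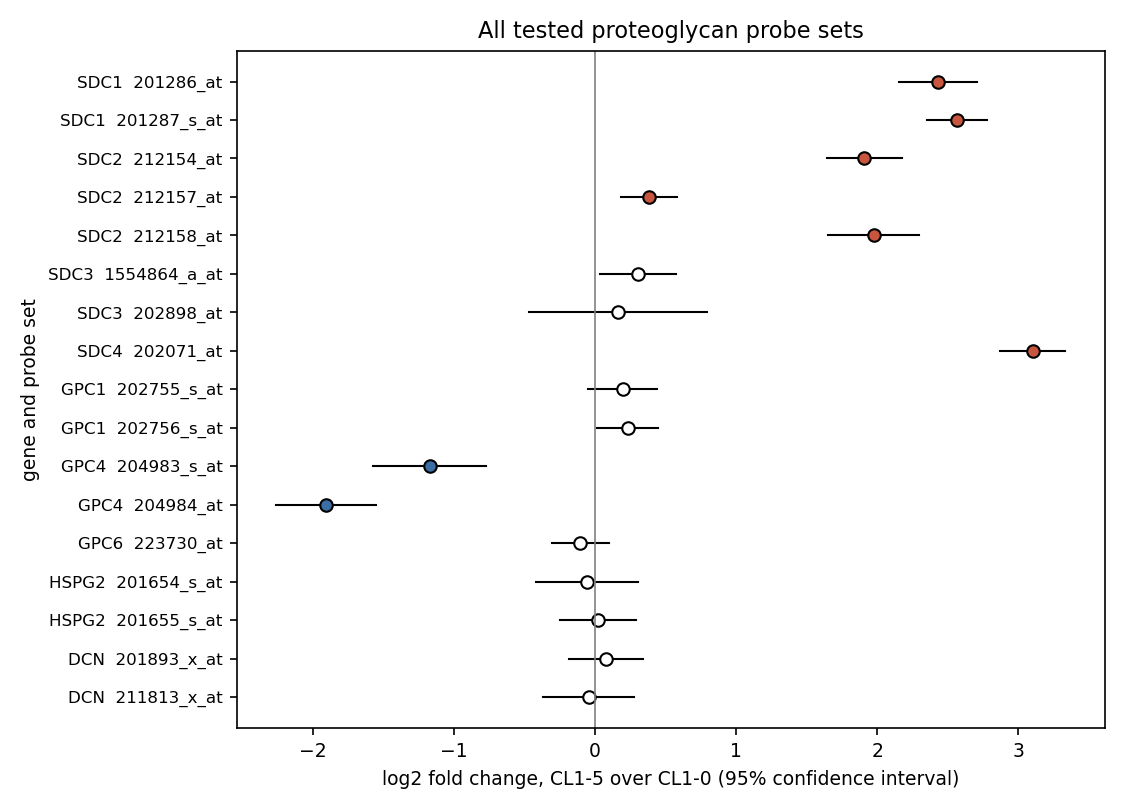
Log2 fold change of CL1-5 over CL1-0 for each of the 17 proteoglycan probe sets that passed the filter, with its 95% confidence interval. Filled points are called at an adjusted p under 0.05 over all 33777 probe sets, red higher and blue lower in CL1-5, and open points are not called. All probe sets of SDC1 and SDC2 and the 1 of SDC4 lie to the right, and both of GPC4 lie to the left. For SDC2 probe sets 212154_at and 212158_at the points are fitted values that use CL1-0 signals under the 40th percentile. They are not the lower bounds given in the text.

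Over all 28 member probe sets 17 passed the filter. Of these, 6 were higher, 2 were lower and 9 were not called, beside 44.4% of all 33777 probe sets called in either direction. Of the 10 genes 7 had at least 2 passing probe sets, and no gene had probe sets called in opposite directions. Of the 6 higher, 2 were the SDC2 probe sets that passed through CL1-5 alone. Both passing probe sets of SDC1 and both of GPC4 were called, each above the 40th percentile in both lines.

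**Figure D3:**
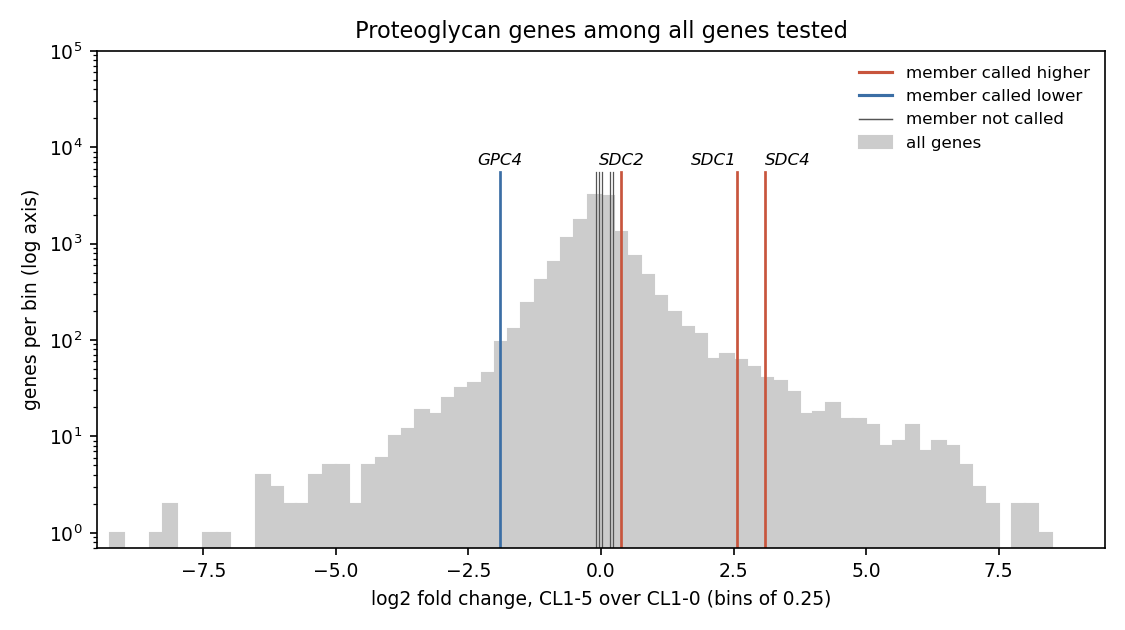
Number of genes (log axis) by log2 fold change of CL1-5 over CL1-0, in bins of 0.25, for the 14828 genes tested, with vertical lines at the 9 proteoglycan genes tested. SDC1 and SDC4 lie in the right tail and GPC4 in the left one, at ranks 372 and 259 from the highest and 275 from the lowest, while the other members lie in the central mass.

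The promoters of SDC1, SDC4 and GPC4, the 3 members at least 2-fold apart in the fit over genes, are shown so that the syndecan genes that rose and the glypican gene that fell can be read side by side. The sequences are the 250 bases before the RefSeq start site (GRCh38.p14, all on the minus strand, printed 5′ to 3′ along the gene), at chr2:20225476-20225725 for SDC1, chr20:45348425-45348674 for SDC4 and chrX:133415490-133415739 for GPC4. Capitals mark the GC box, GGGCGG on either strand, the core letters bound by SP1-type factors.
SDC1: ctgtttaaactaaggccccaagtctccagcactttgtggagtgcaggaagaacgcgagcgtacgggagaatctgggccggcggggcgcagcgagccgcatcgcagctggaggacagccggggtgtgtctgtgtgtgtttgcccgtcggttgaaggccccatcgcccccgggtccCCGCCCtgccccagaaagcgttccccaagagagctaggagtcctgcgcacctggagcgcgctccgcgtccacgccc
SDC4: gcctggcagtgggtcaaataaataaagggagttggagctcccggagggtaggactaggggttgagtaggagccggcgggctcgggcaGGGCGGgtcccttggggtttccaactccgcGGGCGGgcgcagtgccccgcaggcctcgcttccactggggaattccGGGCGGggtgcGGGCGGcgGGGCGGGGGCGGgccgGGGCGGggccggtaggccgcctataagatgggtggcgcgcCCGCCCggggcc
GPC4: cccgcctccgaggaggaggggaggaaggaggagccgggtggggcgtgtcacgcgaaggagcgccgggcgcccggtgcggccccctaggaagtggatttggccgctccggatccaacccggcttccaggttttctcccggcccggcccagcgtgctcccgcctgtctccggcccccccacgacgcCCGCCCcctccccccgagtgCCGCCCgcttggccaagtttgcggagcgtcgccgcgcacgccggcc
The SDC4 window held 8 GC boxes, that of GPC4 held 2 and that of SDC1 held 1. Of all 35116 promoter windows of that length 42.6% held at least 1. Among members that did not pass there were 8 in HSPG2, 5 in SDC3, 4 in GPC1 and 0 in GPC6, with SDC3 and GPC6 read at a start within the gene. The untested VCAN had 1. Windows of 8 members were used here, without SDC2 and DCN. SDC1, SDC4 and GPC4 were the only called members among them, too few to relate the number of boxes to the direction of change. G and C made up 66.4% of the SDC1 window, 73.6% of that of SDC4 and 76% of that of GPC4, beside a median of 58% over all windows. The letters TATAAA, held by 10.7% of all windows on either strand, were in none of the 3 windows. Neither was TGANTCA, a site of AP-1 factors held by 6.57%. For NF-kB only 1 pattern of 10 letters was searched, held by 0.527% of windows, and it was in none of the 3. Other forms of the NF-kB site were not searched, so the 3 windows are not shown to lack one. CACCTG, an E-box bound by SNAIL-type factors and held by 17.5% of windows, occurred 1 time in SDC1, apart from its GC box, and not in SDC4 or GPC4. A match is a description of the letters and no evidence of binding.

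Of the genes next to the members in the RefSeq order of protein-coding genes (GRCh38.p14), 13 were tested and 8 were called, a share near the 51.6% of all genes. The neighbour of GPC4 on chromosome X is GPC3, another glypican, known as an oncofetal protein. GPC3 read 392, 358 and 378 signal units in CL1-0 and 39.2, 33.6 and 39.5 in CL1-5, and fell by 3.11 on the log2 scale (SE 0.10, limma adjusted p = 2.6e-08). The pair of neighbouring glypican genes was thus lower in CL1-5 on every array. Beside SDC2, CPQ, a secreted carboxypeptidase gene, rose by 2.91 (SE 0.10) and PTDSS1, a phosphatidylserine synthase gene, by 1.02 (SE 0.10). Beside SDC1, LAPTM4A rose by 0.70 (SE 0.08) and PUM2 by 0.52 (SE 0.11). Beside SDC4, RBPJL (-0.027, limma adjusted p = 0.88) and SYS1 (0.28, limma adjusted p = 0.16) did not pass. Among the other neighbours, LAPTM5 beside SDC3 rose by 1.67 (SE 0.15) and BTG1 beside DCN by 1.04 (SE 0.09), and XRCC4 beside the untested VCAN fell by 0.34 (SE 0.11). HAPLN1 on the other side of VCAN (0.038), ANKMY1 beside GPC1 (0.030) and CELA3B beside HSPG2 (-0.012) did not pass.

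The genes whose pattern over the 6 arrays was nearest to that of SDC4, by Euclidean distance of log2 values centred on each gene, were INPP1, an inositol phosphate phosphatase gene (distance 0.20), AMPD3, an AMP deaminase gene (0.21, under the 40th percentile on all CL1-0 arrays, so that its distance is not settled), and SPHK1, a sphingosine kinase gene (0.23). SPHK1 read 76.4, 81.9 and 87.0 signal units in CL1-0 and 693, 783 and 818 in CL1-5. Nearest to GPC4 were ADGRA3, an adhesion receptor gene (0.19), KCNG3, a potassium channel subunit gene (0.24), and GABPB2 (0.26). ADGRA3 read 337, 312 and 320 in CL1-0 and 65.7, 87.5 and 106 in CL1-5. The distances are descriptions over 6 arrays of 2 lines and carry no test.

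The genes that build, edit and release the sugar chains and core proteins were read from 8 lists. Of their 121 genes 114 were on the array and 87 were tested. Of these 28 were higher and 15 lower in CL1-5, beside 23.3% and 28.3% of all genes, with a median log2 fold change of 0.078 beside -0.033. The lists held large differences in both directions, and genes that were under the 40th percentile in one line passed through the other line alone and so had to differ.

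Enzymes that attach and lengthen the chains were the list with the most one-sided counts. Of 15 tested genes 7 were higher and 0 lower by limma, or 9 and 1 at an unadjusted p under 0.05, with a median of 0.29. EXT1, a heparan sulfate polymerase gene, read 239, 232 and 260 signal units in CL1-0 and 730.2, 702 and 1027 in CL1-5. It rose by 1.70 on the log2 scale (SE 0.14), with both passing probe sets called. PXYLP1, the phosphatase that acts on the linker xylose, rose by 1.26 (SE 0.12), CHSY1, a chondroitin polymerase, by 1.11 (SE 0.09), and CSGALNACT2, which starts chondroitin chains, by 0.49 (SE 0.12), though 1 of 3 CSGALNACT2 probe sets was called. With the repeat number as a block 10 were higher and 1 lower, with array weights 10 and 2, and as the mean of probe sets 6 and 1. EXT2 was called through 1 of 2 passing probe sets. As the mean of probe sets EXT2 (0.11, limma adjusted p = 0.30) and EXTL3 (0.10, limma adjusted p = 0.39) were not called. The call of EXTL3, which no probe set passed in the fit over all probe sets, was lost without CL1-0 repeat 2 or 3 or any 1 CL1-5 array (limma adjusted p of 0.051, 0.11, 0.084, 0.13 and 0.081), and that of EXT2 without CL1-0 repeat 2 (adjusted p = 0.054 by limma) or CL1-5 repeat 3 (0.054), and without CL1-5 repeat 3 there were 5 higher and 1 lower.

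Of 10 tested genes for the sulfotransferases and the epimerase that pattern heparan sulfate 1 was higher and 3 were lower, with a median of -0.11. HS6ST2, a 6-O-sulfotransferase gene, read 201, 204 and 242 signal units in CL1-0 and 12.8, 12.0 and 9.88 in CL1-5. It was at least 10.8-fold lower. All 3 probe sets were called, but this one passed the filter through CL1-0 alone and so had to differ. HS3ST1, a 3-O-sulfotransferase gene, was at least 1.94-fold higher, through 1 of 3 probe sets. Without CL1-5 repeat 1, 2 or 3 another HS3ST1 probe set was tested, with values of -0.052, -0.062 and 0.012. HS3ST3A1 fell by 0.41 (SE 0.13) and HS6ST1 by 0.35 (SE 0.13). The call of HS3ST3A1 was lost without CL1-0 repeat 2 or 3 or CL1-5 repeat 1 or 2 (limma adjusted p of 0.056, 0.066, 0.082 and 0.086), and that of HS6ST1 without CL1-0 repeat 1 or 2 or CL1-5 repeat 2 or 3 (0.14, 0.089, 0.12 and 0.12). Without CL1-0 repeat 1, 2 or 3 the list had 1, 1 and 2 genes higher and 1, 0 and 1 lower, HS6ST2 failing the filter on 3 arrays, and without CL1-5 repeat 1, 2 or 3 it had 1, 0 and 0 higher and 2, 1 and 2 lower, while with the repeat number as a block it had 2 higher and 3 lower. NDST1, which starts sulfation of the chain, averaged 133 ± 20.6 (SD) and 133 ± 16.1 signal units, and the epimerase gene GLCE, at 0.36 (SE 0.14, limma adjusted p = 0.053), did not pass.

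Of 9 tested genes that modify chondroitin and dermatan sulfate 4 were higher and 2 lower. CHST15, which adds sulfate to make the doubly sulfated E unit, read 153, 132 and 156 signal units in CL1-0 and 588, 657 and 680.4 in CL1-5. It rose by 2.08 on the log2 scale (SE 0.10). UST, the uronyl 2-O-sulfotransferase gene, was at least 3.17-fold lower, and it failed the filter on 3 arrays without any 1 CL1-0 array. CHST14, for dermatan 4-O-sulfation, rose by 0.69 (SE 0.21) though its lines overlapped, and CHST11, for chondroitin 4-O-sulfation, fell by 0.52 (SE 0.14). The CHST14 call was lost without CL1-0 repeat 1 or 2 or CL1-5 repeat 2 or 3 (limma adjusted p of 0.083, 0.077, 0.054 and 0.055). Without CL1-0 repeat 2 the list had 2 higher and 1 lower, without CL1-0 repeat 3 it had 4 and 1, and without CL1-5 repeat 3 it had 2 and 3. In the supply of sulfate and sugar donors 2 of 9 genes were higher and 1 was lower. PAPSS2, which makes the sulfate donor, rose by 2.28 (SE 0.10), with all 3 probe sets called, and UGDH, which makes UDP-glucuronic acid, fell by 1.09 (SE 0.11). SLC35B3, a sulfate donor transporter gene, rose by 0.58 (SE 0.11) through one probe set, while its other probe set was called in the opposite direction (-1.22). As the mean of probe sets SLC35B3 was called lower (-0.32, limma adjusted p = 0.014), and the supply list had 1 higher and 2 lower. Blocked on the repeat number, the supply list had 3 higher and 3 lower, and without CL1-5 repeat 3 it had 2 and 2.

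Of 9 tested genes for the editing and breakdown of heparan sulfate 4 were higher and 1 lower, with a median of 0.22. SULF2, an enzyme that removes 6-O-sulfates outside the cell, read 13.8, 13.4 and 13.4 signal units in CL1-0 and 182, 244 and 209 in CL1-5. It was at least 10.5-fold higher. Both probe sets were called, but this one passed the filter through CL1-5 alone and so had to differ. Without any 1 CL1-5 array SULF2 failed the filter on 3 arrays. With the filter on 2 arrays it was called, again through CL1-5 alone, so that call is no check. SULF1, its relative, failed the filter, at 14.7 ± 3.36 (SD) and 19.7 ± 2.04. Heparanase, HPSE, which cuts the chains, rose by 0.49 (SE 0.13), NAGLU, a lysosomal enzyme, by 0.78 (SE 0.10) through 1 of 2 probe sets, and GUSB fell by 0.39 (SE 0.10) through 1 of 2. The other gene called higher, ARSG, rose by 0.36 (SE 0.09) through one probe set, while its other probe set was called in the opposite direction (-0.39). As the mean of probe sets ARSG was at -0.016 and was not called (limma adjusted p = 0.89). With the repeat number as a block 5 were higher and 2 lower, and without CL1-5 repeat 3 there were 3 and 2.

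Proteases and other enzymes known to release or process proteoglycans were higher in 6 of 11 tested genes and lower in 1, with a median of 0.56. MMP14, a membrane-bound metalloproteinase that can shed SDC1, read 64.6, 84.4 and 72.4 signal units in CL1-0 and 1352, 1255 and 602 in CL1-5. It rose by 3.66 on the log2 scale (SE 0.27), with all 4 probe sets called and CL1-5 repeat 3 lowest of its line. The gelatinases MMP9 and MMP2 rose by 2.26 (SE 0.11) and 1.32 (SE 0.15), MMP2 through 1 of 2 passing probe sets. The general sheddases ADAM10 and ADAM17 rose by 0.56 (SE 0.09) and 0.73 (SE 0.12), each with 2 of 3 probe sets called. BMP1, the other gene called higher, rose by 0.60 (SE 0.15), with 2 of 6 passing probe sets called. The BMP1 call was lost as the mean of probe sets (0.26, limma adjusted p = 0.063) and without CL1-5 repeat 2 (0.37, limma adjusted p = 0.060). ADAMTS1, which cleaves versican and other large proteoglycans, read 305, 249 and 209 in CL1-0 and 12.5, 11.9 and 12.4 in CL1-5. It was at least 12.6-fold lower. Without CL1-0 repeat 1, 2 or 3 the list had 0 lower, ADAMTS1 failing the filter on 3 arrays, and without CL1-5 repeat 1 it had 2. NOTUM, which cuts glypicans off their lipid anchor, did not pass (-0.26, limma adjusted p = 0.12). The part of these transcripts in the amount of proteoglycan at the cell surface was not measured.

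Among 5 tested genes for proteins that bind the cytoplasmic tail of syndecans 1 was higher and 2 were lower. SDCBP, syntenin, read 2056, 1973 and 2193 signal units in CL1-0 and 3248, 3057 and 3260 in CL1-5, and rose by 0.62 (SE 0.07). CASK, a scaffold protein, fell by 0.70 (SE 0.09). EZR, ezrin, fell by 0.21 (SE 0.07), with 0 of 5 probe sets called in the fit over all probe sets, a call that was lost without CL1-0 repeat 1 or 2 or any 1 CL1-5 array (limma adjusted p of 0.13, 0.079, 0.14, 0.11 and 0.054), leaving 1 lower.

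Other proteoglycan core and link proteins were higher in 3 of 19 tested genes and lower in 5, with a median of -0.0099. Besides GPC3, the heparan sulfate proteoglycans of basement membranes COL18A1 and AGRN rose, by 2.26 (SE 0.14) and 2.03 (SE 0.20). COL18A1 read 91.4, 88.8 and 96.4 signal units in CL1-0 and 392, 453 and 571 in CL1-5. AGRN read 113, 114 and 138 in CL1-0 and 403, 477 and 727 in CL1-5, with 2 of 4 probe sets called. In both genes CL1-5 repeat 3 was the highest of its line. The third basement membrane proteoglycan, HSPG2, was the member given above with a difference of 0.022. CSPG5, a neural chondroitin sulfate proteoglycan gene, fell by 1.04 (SE 0.26), through 1 of 2 probe sets. In repeats 1 and 2 alone CSPG5 was read through its other probe set and was not called (-0.12, limma adjusted p = 0.48). TGFBR3 rose by 0.37 (SE 0.13), with 0 of 2 probe sets called over all probe sets. Its call was lost without CL1-0 repeat 1 or 2 or CL1-5 repeat 2 or 3 (limma adjusted p of 0.10, 0.16, 0.080 and 0.13). GPC2 fell by 0.39 (SE 0.12), a call lost without CL1-0 repeat 1 or CL1-5 repeat 2 or 3. Without any 1 of these 3 arrays the list had 2 higher and 4 lower. The small leucine-rich proteoglycans LUM, OGN, OMD, KERA, ASPN and EPYC, relatives of decorin, were under the 40th percentile on all arrays through their brightest probe set, while BGN, FMOD, PRELP and PODN of the same family averaged between 23.5 and 55.8 signal units and did not pass the test.

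**Figure D4:**
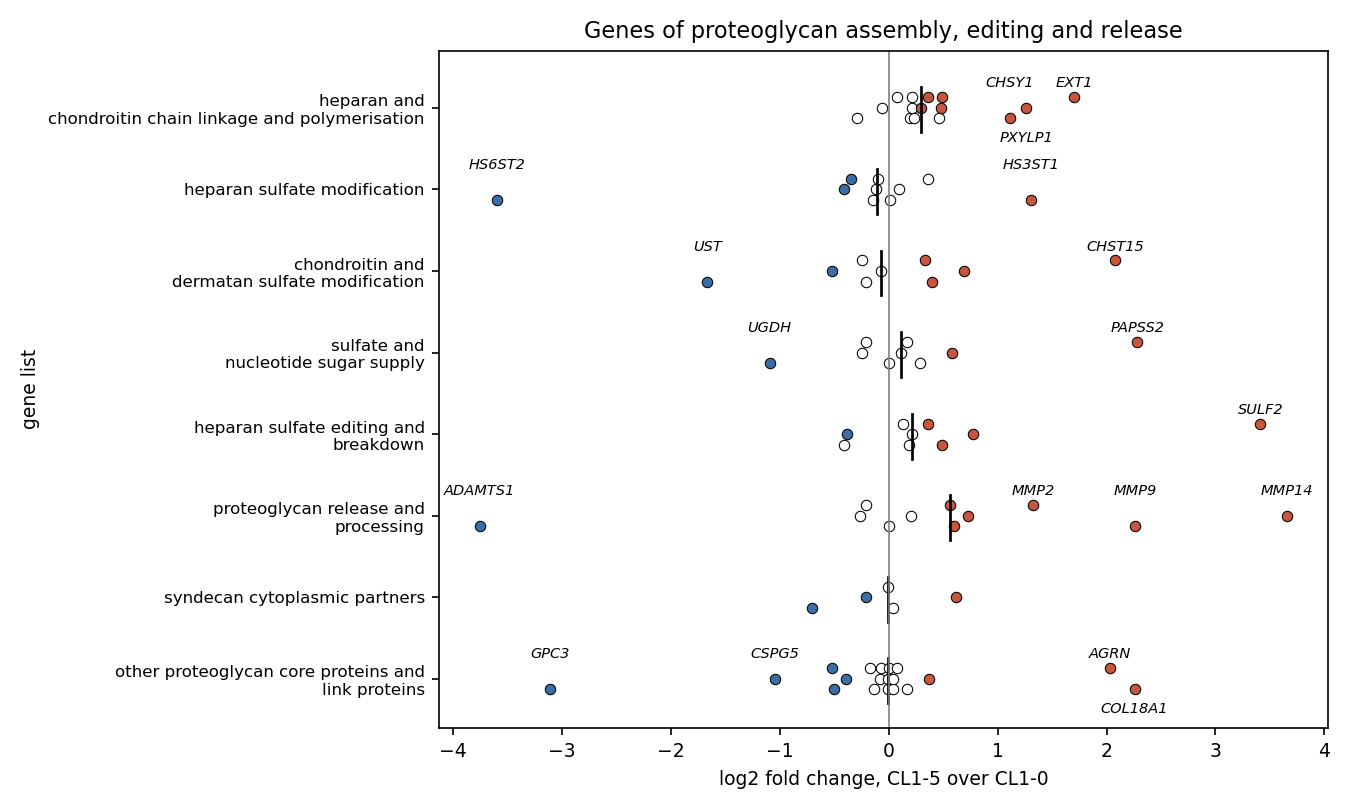
Log2 fold change of CL1-5 over CL1-0 for each tested gene of the 8 lists, spread vertically only for legibility, with a bar at each list's median. Filled points are called at an adjusted p under 0.05, red higher and blue lower, open points are not called, and called genes past a 2-fold difference are named. The chain-building list has 7 red and 0 blue points, whereas MMP14 (3.66) and ADAMTS1 (at least 12.6-fold lower) lie far apart within the release list.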

How the data were processed

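Transcript levels were measured on 6 one-colour oligonucleotide arrays, 3 per line, with groups and repeat numbers taken from the sample titles. As deposited, each value is a linear intensity per probe set, and array quantiles are close to equal. Per the submitters' processing notes MAS5 was used; its version, like any later step, is not given in the sources used here. Gene names came from the platform annotation (41091 with 1 gene symbol, 1801 with several, 11721 with none), updated by gene identifier to RefSeq (GRCh38.p14) for 41037. The files' genome build is not given in the sources used here.

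The scale was log2(signal + 6.85), where 6.85 is the overall 10th percentile. Probe sets entered if above their array's 40th percentile on 3 or more arrays. Each gene was read through its brightest passing probe set, one with suffix x only where no other passed. The test was limma's (version 3.58.1, R 4.3.3; lmFit and eBayes with a trend), adjusted by Benjamini-Hochberg over all genes, or over all probe sets in a second fit. Named genes were all members, up to 4 called genes per list with the largest change, and the 3 genes nearest to the member with the largest rise and to that with the largest fall. The neighbours on the chromosome and the promoter motifs were named after their values were seen. So were CDH5, SULF1, NDST1, GLCE, NOTUM, EXTL3, EXT2, ADAM10, ADAM17, BMP1, ARSG, TGFBR3, GPC2 and the relatives of decorin. The members and lists were chosen with earlier results of these data known.

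After removing each line's mean, arrays of equal number correlated at 0.475, 0.280 and 0.649 for repeats 1, 2 and 3. The main fit, which gave the fold changes, SEs and calls, was unpaired and left this out. A fit with the repeat number as a block stands beside it where it changed a call. The labels do not say that the numbers mark a shared day. Alternatives were the constant, the filter, the scaling, the trend, weighting arrays, how probe sets are combined, the block, each array left out and a stricter threshold. Repeats 1 and 2 alone, repeat 3 alone, and a filter on 2 arrays with 1 array left out were added after the data were seen.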

Additional observations from a re-analysis of the deposited data

How the results depend on the processing

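SDC1, SDC4 and GPC4 kept their direction and their call under all 25 tested alternatives, with log2 fold changes of 2.43 to 2.65, 2.79 to 3.19 and -2.07 to -1.44. SDC2, where read through 212157_at, kept both as well, at 0.25 with a constant of 32 to 0.44 with a constant of 1. With the filter at the 60th percentile (1.97) and as the mean of probe sets (1.42) it rested on probe sets under the 40th percentile on all CL1-0 arrays, so those values and calls are no check on it. The count of members was 3 or 4 higher and 1 lower in each. GPC1 was the fourth, called with the filter at the 60th percentile (adjusted p = 0.046), with no trend (0.0499), with array weights (0.0032) and with the repeat number as a block (0.027), and not called under the other 21. GPC6 and DCN failed the filter at the 60th percentile and gave no value there. The block changed no other member's call. Within repeat 3 alone, SDC1, SDC4, SDC2 and GPC4 differed by 2.61, 3.05, 0.38 and -1.72, and HSPG2 by 0.27. Members that were never called changed sign in places, and the cause was not tested. SDC3 was at -0.017 without CL1-0 repeat 1 and -0.052 without CL1-5 repeat 3 with either filter, in a range up to 0.42. HSPG2 was at -0.10 with array weights, -0.017 as the mean of probe sets, -0.048 without CL1-0 repeat 3, -0.030 without CL1-5 repeat 3 (range up to 0.091) and -0.10 in repeats 1 and 2 alone. DCN was at 0.018 as the mean of probe sets, 0.020 without CL1-0 repeat 2, 0.043 without CL1-0 repeat 3 (range from -0.19) and 0.013 in repeats 1 and 2 alone. With no filter VCAN entered at -0.04 (adjusted p = 0.87). Over the 8 lists, the 28 higher genes became 21 to 30 when 1 array was left out and 34 with the block, and the 15 lower became 9 to 16, with 9 without CL1-0 repeat 2, where HS6ST2, ADAMTS1 and UST fail the filter on 3 arrays, and 12 there with the filter on 2. With array weights there were 38 higher and 27 lower, and at an adjusted p under 0.01 there were 22 and 9. The lower count with the block was 19. Probe sets under the 40th percentile, VCAN among them, allow no statement on size.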
